A study of Mus musculus with 4 samples.

Results

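The miR-99, miR-100 and miR-125 families were followed in extracellular vesicles, the membrane particles that cells release with RNA inside, from C2C12 cells. The members were the rows of the count table for the 5p arms of miR-99a, miR-99b, miR-100, miR-125a and miR-125b, found by their miRBase identifiers (MIMAT0000131, MIMAT0000132, MIMAT0000655, MIMAT0000135 and MIMAT0000136, in that order) and checked by name, plus the row of the other arm of each hairpin within 60 bases on the same strand. They came to 12 of 2110 rows and 11 of 1966 mature identifiers, because miR-125b-5p is made from 2 hairpins and has 2 rows. C2C12 is a mouse myoblast line, and all samples carry the WT genotype label. The 2 damaged libraries came from cells labelled with hydrogen peroxide treatment, and the 2 WT libraries from cells whose treatment label is WT. Neither the dose of peroxide nor its duration is given in the labels. The cells grew with 10% fetal bovine serum, and a serum miRNA of the same sequence would be counted with the mouse one. Both groups are 1 cell line labelled as myoblast, not muscle tissue, and nothing in the labels says whether the replicates are separate cultures. The p-values therefore set the group difference against a spread between replicates that may be only technical.

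A miRNA hairpin is cut into a 5p and a 3p arm, and the arm that is kept finds its target mRNAs mainly through its seed, bases 2 to 8. miR-125 is the vertebrate counterpart of worm lin-4, a developmental timing gene, and lies in mammals in clusters with miR-99 or miR-100 and a let-7 gene. miR-125b is known to repress p53 and, in myoblasts, the growth factor Igf2, while miR-99 and miR-100 are known to repress mTOR and the IGF1 receptor.

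The 5p arms fall into 2 seed families, shown here from RefSeq (GRCm38.p6) with the seed in capitals, because the families are described together below. miR-351-5p, which is not a member, is added because it has the seed of miR-125.
miR-99a-5p: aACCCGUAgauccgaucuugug
miR-99b-5p: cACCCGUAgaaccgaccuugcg
miR-100-5p: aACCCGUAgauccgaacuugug
miR-125a-5p: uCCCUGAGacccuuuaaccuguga
miR-125b-5p: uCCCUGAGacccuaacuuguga
miR-351-5p: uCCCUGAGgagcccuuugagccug
In RefSeq the seed of miR-99 and miR-100 is held by these 3 mature names only, and that of miR-125 by 5, the last 2 being miR-6367 and miR-6394. miR-6367 had 0 counts in every library, and miR-6394 had 1.11 CPM in WT replicate 1 and 0 elsewhere, where CPM is the count scaled to library size with TMM factors. miR-99a-5p and miR-100-5p differ at 1 position, counted from the 5′ end with U written as T (T16A, miR-99a first), so the split of reads between their rows is less certain. miR-99a-5p and miR-99b-5p differ at 4 positions. miR-125a-5p and miR-125b-5p share their first 13 bases.

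The 3p arms that the results turn on do not share the seeds of their 5p partners.
miR-99b-3p: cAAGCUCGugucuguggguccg
miR-125b-1-3p: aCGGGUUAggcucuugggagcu
miR-125b-2-3p: aCAAGUCAgguucuugggaccu
The Mir125b-1 hairpin is printed with both counted arms in capitals, to show where they lie around the loop; it lies on the plus strand of chromosome 9 at 41581926 to 41582002.
Mir125b-1: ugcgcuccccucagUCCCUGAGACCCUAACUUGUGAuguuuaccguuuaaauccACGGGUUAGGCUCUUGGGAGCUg

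All 12 rows lie on the plus strand in 3 clusters (coordinates of the deposited table, mm10). The cluster on chromosome 9, from 41531437 to 41582001, holds miR-100, let-7a-2 and miR-125b-1 in introns of the long transcripts 3110039I08Rik and Gm49317. The miR-100 rows there also lie in an exon of Gm48742, a long noncoding RNA of the opposite strand, and the miR-125b-1 rows in an exon of Gm28119 of the same strand. The cluster on chromosome 16, from 77598940 to 77646339, holds miR-99a, let-7c-1 and miR-125b-2 in an intron of Mir99ahg, a long noncoding host transcript. The cluster on chromosome 17, from 17830194 to 17830876, spans 683 bases in Spaca6, a gene of sperm function; miR-99b and let-7e are intronic, whereas miR-125a-5p lies wholly and miR-125a-3p partly in an annotated Spaca6 exon. Reads were counted without regard to strand, so sense and antisense reads at these places cannot be told apart, but no member row shares bases with a row of the opposite strand in the table.

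The WT libraries held 4577668 (replicate 1) and 7638663 (replicate 2) counts, and the damaged libraries 6901394 and 7350345. edgeR's quasi-likelihood test of damaged against WT, with Benjamini-Hochberg adjustment at 0.05, was run on 536 rows and called 51 of them (9.51%), 22 higher (4.1%) and 29 lower (5.41%), and all 12 member rows passed its filter on low counts. Without adjustment, 165 of the 536 rows had a p under 0.05. The labelled cell type showed in muscle miRNAs, which took 29.6% to 33.6% of counts in WT and 35.7% to 38.3% in damaged, with 3 of 8 tested rows called higher. Most of these counts were miR-206-3p (1310920 and 2489000 in WT, 2340927 and 2689150 in damaged), which edgeR did not call (adjusted p = 0.334). The 3 called rows were miR-133b-3p and both copies of miR-133a-3p. Suspected fragments of other RNA classes took 0.216% and 0.320% of counts in the WT libraries and 0.676% and 0.725% in the damaged ones (16 of 23 rows tested, 4 called higher and 1 lower, median log2 fold change 1.60). Neural, epithelial and endothelial miRNAs took 0.0585% and 0.0696% in WT and 0.0947% and 0.125% in damaged; 1 of 5 tested rows was called higher, the median was 0.64, and 13 of 22 rows, miR-126a-3p, miR-200b-3p and all miR-9 rows among them, were at 0. Of those 13, 11 share bases with an entry of the opposite strand, as do 105 rows at 0 in the whole table, so their 0 says little. Blood cell and liver miRNAs took 0.168% to 0.189% in WT and 0.170% to 0.177% in damaged, with 0 of 6 tested rows called by edgeR (3 at an unadjusted p under 0.05, median 0.45), and miR-122-5p and miR-142a-3p at 0, both with an opposite-strand entry. The part of these sources in the results below was not tested.

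Together the 12 rows held 1.02% of counts in each WT library (exact Clopper-Pearson 95% intervals 1.01 to 1.03 and 1.02 to 1.03). In the damaged libraries they held 1.19% (1.18 to 1.20) and 1.23% (1.22 to 1.24). Intervals cover counting error only. The 5p arms supplied nearly all of it: the 3p arms held 0.0580% and 0.0454% of counts in WT and 0.0341% and 0.0358% in damaged. Row by row, the order of levels per nucleotide was miR-99a-5p, miR-99b-5p and miR-100-5p in WT, followed by the miR-125b-5p rows and miR-125a-5p, whose CPM ranges overlapped. In damaged, miR-125a-5p had rank 3 at 69.4 CPM per nucleotide and miR-100-5p rank 6 at 50.9, below the miR-125b-5p rows at 64.8 and 63.1. In CPM, damaged miR-125a-5p overlapped the Mir125b-1 row of miR-125b-5p but lay above the Mir125b-2 row. Not divided by length, the WT mean of miR-125a-5p (859 CPM) was above those of the miR-125b-5p rows (831 and 822). Summed over its rows, miR-125b-5p had a WT mean of 1653 CPM, above miR-100-5p at 1486, though their WT libraries overlapped. The 3p arms kept 1 order in the means of both groups: miR-125b-1-3p, miR-99b-3p, miR-100-3p, miR-125b-2-3p, miR-125a-3p and miR-99a-3p. The CPM of miR-100-3p and miR-125b-2-3p overlapped in damaged, as did those of miR-125b-2-3p with miR-125a-3p.

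**Figure D1:**
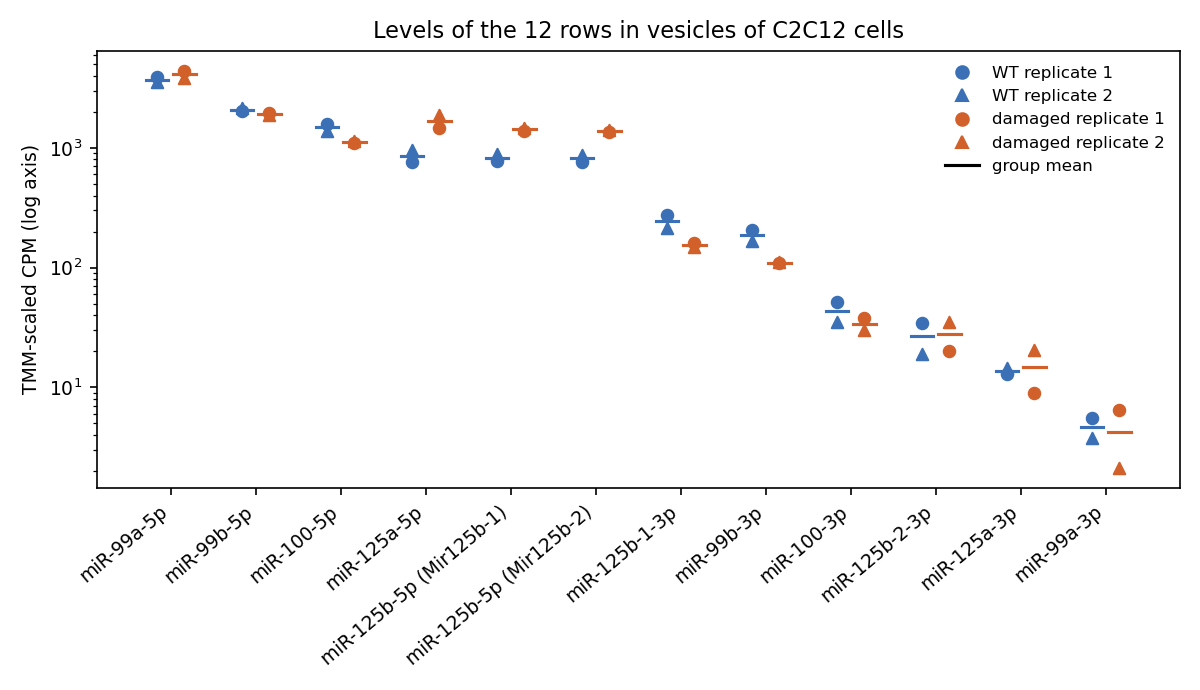
TMM-scaled CPM on a log axis for the 12 rows; circles and triangles are replicates 1 and 2, and short lines are group means (n = 2 libraries per group). The miR-125a-5p and miR-125b-5p points of the damaged libraries lie above those of WT. Those of miR-100-5p, miR-99b-3p, miR-125b-1-3p and, by a small margin, miR-99b-5p lie below.

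The 5p arms of the miR-125 family rose in vesicles of peroxide-treated cells, miR-125a-5p 1.94-fold and the miR-125b-5p rows 1.72-fold and 1.69-fold. They were the only members that edgeR called, 3 of 12 rows, against 22 of 536 called higher over all rows (4.1%). These 3 rows stand for 2 mature sequences. With gene copies summed, edgeR called 2 of 11 members higher, against 21 of 483 entries (4.35%). More vesicles that carry a miRNA and more of it per vesicle cannot be told apart in such bulk samples, nor can the reverse where a value is lower. The median log2 fold change was -0.03 over the 12 members and 0.02 over all 536 tested rows.

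miR-125a-5p, a repressor of several growth and immune signalling genes, stood at 765 and 952 CPM in WT replicates 1 and 2 and at 1464 and 1867 CPM in damaged replicates 1 and 2. Both damaged libraries were above both WT libraries, and the replicates differed more in damaged (1666 ± 285 CPM) than in WT (859 ± 132 CPM; SD, n = 2). edgeR gave a log2 fold change of 0.96 with an SE of 0.19 and an adjusted p of 0.0360.

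The Mir125b-1 row of miR-125b-5p held 772 and 889 CPM in WT and 1371 and 1479 CPM in damaged. The Mir125b-2 row held 765 and 879 CPM in WT and 1360 and 1414 CPM in damaged. Reads of this sequence cannot be assigned to a hairpin: the Mir125b-1 row took 50.2%, 50.3%, 50.2% and 51.1% of them in WT replicates 1 and 2 and damaged replicates 1 and 2. By edgeR the rows had log2 fold changes of 0.78 (SE 0.14) and 0.75 (SE 0.13), each with an adjusted p of 0.0305. With gene copies summed across the whole table, where edgeR called 10.1% of 483 entries (4.35% higher and 5.8% lower), miR-125b-5p rose by 0.78 on the log2 scale (adjusted p = 0.0370), from 1653 ± 163 to 2812 ± 114 CPM (SD, n = 2). As a summed sequence it stood below miR-99b-5p in both WT libraries and above it in both damaged ones. The calls of miR-125a-5p and miR-125b-5p held in each of 10 other settings on 4 libraries and ended when any single library was left out (adjusted p = 0.0958 to 0.253 for miR-125a-5p and 0.0951 to 0.222 for either miR-125b-5p row), with log2 fold changes then between 0.58 and 1.15.

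The family's summed share of counts was 0.227% and 0.271% in WT and 0.417% and 0.487% in damaged. The damaged shares were both above the WT ones, and the summed CPM was 1.78-fold higher. miR-125b-5p made up 65.9% ± 1.25 of the family's reads in WT and 62.9% ± 3.06 in damaged (SD, n = 2). The log2 ratio of miR-125b-5p to miR-125a-5p was 1.01 and 0.89 in WT and 0.90 and 0.63 in damaged, which overlap (difference -0.18, exact two-sided permutation p = 0.667, 0.667 adjusted over the 3 pairs compared). With 2 libraries against 2, that test cannot give a p below 0.333.

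miR-351-5p, with the seed of miR-125, moved the other way. This miRNA, of an X-linked cluster with miR-322 and miR-503, stood at 622 and 593 CPM in WT and at 273 and 281 CPM in damaged. By edgeR it fell by 1.13 on the log2 scale (SE 0.13, adjusted p = 0.0136), a call that ended without WT replicate 1 (adjusted p = 0.134), WT replicate 2 (0.132) or damaged replicate 1 (0.0985). miR-351-5p is also 1 of the 32 tested rows of miRNAs that regulate myoblast growth and differentiation, of which edgeR called 0 higher (4.1% over all rows) and 4 lower (5.41%), with a median log2 fold change of -0.11. At an unadjusted p under 0.05 were 14 of the 32 rows (165 of 536 over all rows). miR-322-5p and both rows of miR-199a-3p were the others called lower. In 7 of the 32 rows both damaged libraries were above both WT libraries, and in 15 both were below (29.1% and 30.8% over all rows).

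**Figure D2:**
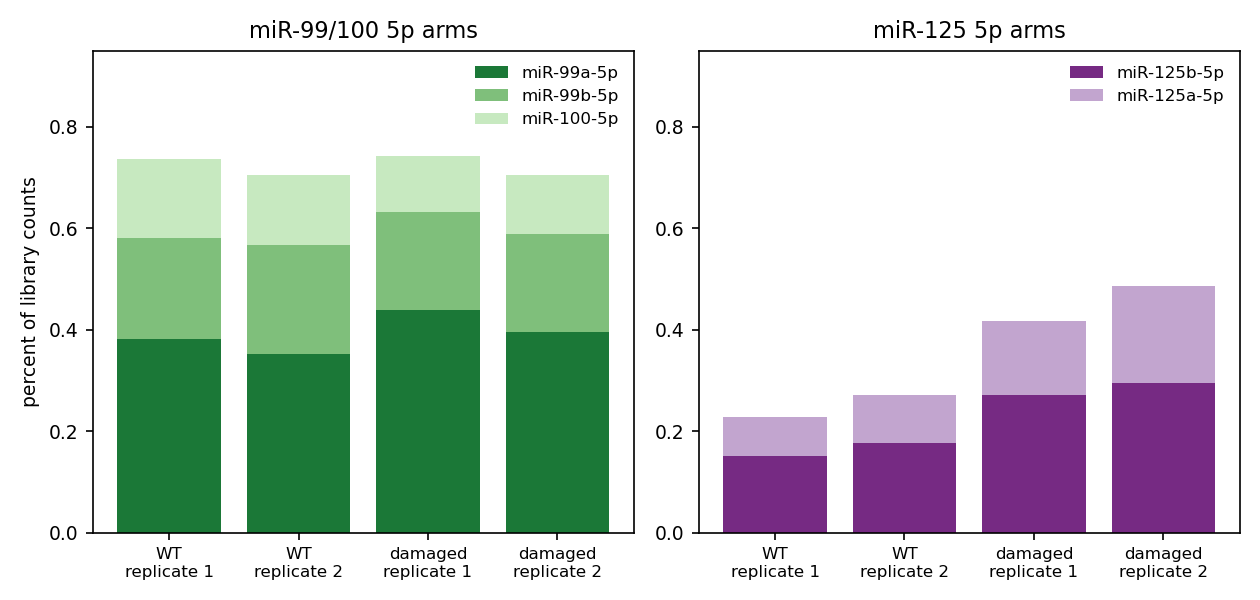
Percent of library counts held by the 5p arms of each seed family in the 4 libraries, stacked by member. The miR-99 and miR-100 stack is 0.706% to 0.742% in every library, while the miR-125 stack is 0.227% and 0.271% in WT and 0.417% and 0.487% in damaged.

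The 5p arms of miR-99 and miR-100 had overlapping summed shares in the groups, while the values of their makeup lay apart for miR-99a-5p and miR-100-5p. The sum was 0.737% and 0.706% of counts in WT and 0.742% and 0.706% in damaged, and the groups overlap. None of the 3 rows passed edgeR (1 of 3, miR-100-5p, had an unadjusted p under 0.05, as did 165 of 536 over all rows). The counts of miR-125 5p reads per miR-99 or miR-100 5p read were thus 0.308 and 0.384 in WT and 0.562 and 0.690 in damaged.

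miR-99a-5p, the most abundant member, had 3875 and 3530 CPM in WT and 4416 and 3864 CPM in damaged. The groups overlap, since damaged replicate 2 lies just below WT replicate 1. edgeR put its log2 fold change at 0.16 (SE 0.13, adjusted p = 0.442). miR-99b-5p had 2020 and 2153 CPM in WT and 1949 and 1893 CPM in damaged. Both damaged libraries were below both WT libraries by a margin smaller than the gap between the WT replicates, and edgeR's log2 fold change was -0.12 (SE 0.11, adjusted p = 0.533).

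miR-100-5p had 1578 and 1393 CPM in WT and 1101 and 1140 CPM in damaged. The groups do not overlap, but edgeR did not call it, with a log2 fold change of -0.41, an SE of 0.13 and an adjusted p of 0.0931. DESeq2, which called 20.3% of the 536 rows (8.4% higher and 11.9% lower), did call it (log2 fold change -0.41, adjusted p = 0.0389; 0.0354 to 0.186 over the 10 settings). Within the family, miR-100-5p made up 20.4% ± 1.01 of reads in WT and 15.6% ± 1.26 in damaged, and miR-99a-5p 50.9% ± 1.39 and 57.6% ± 2.21 (SD, n = 2). The log2 ratio of miR-99a-5p to miR-100-5p, rows 1 base apart, was 1.30 and 1.34 in WT and 2.00 and 1.76 in damaged (difference 0.56). That of miR-99a-5p to miR-99b-5p was 0.94 and 0.71 in WT and 1.18 and 1.03 in damaged (difference 0.28). Each difference had the smallest p the exact two-sided permutation test can give, 0.333 (0.5 adjusted over the 3 pairs).

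**Figure D3:**
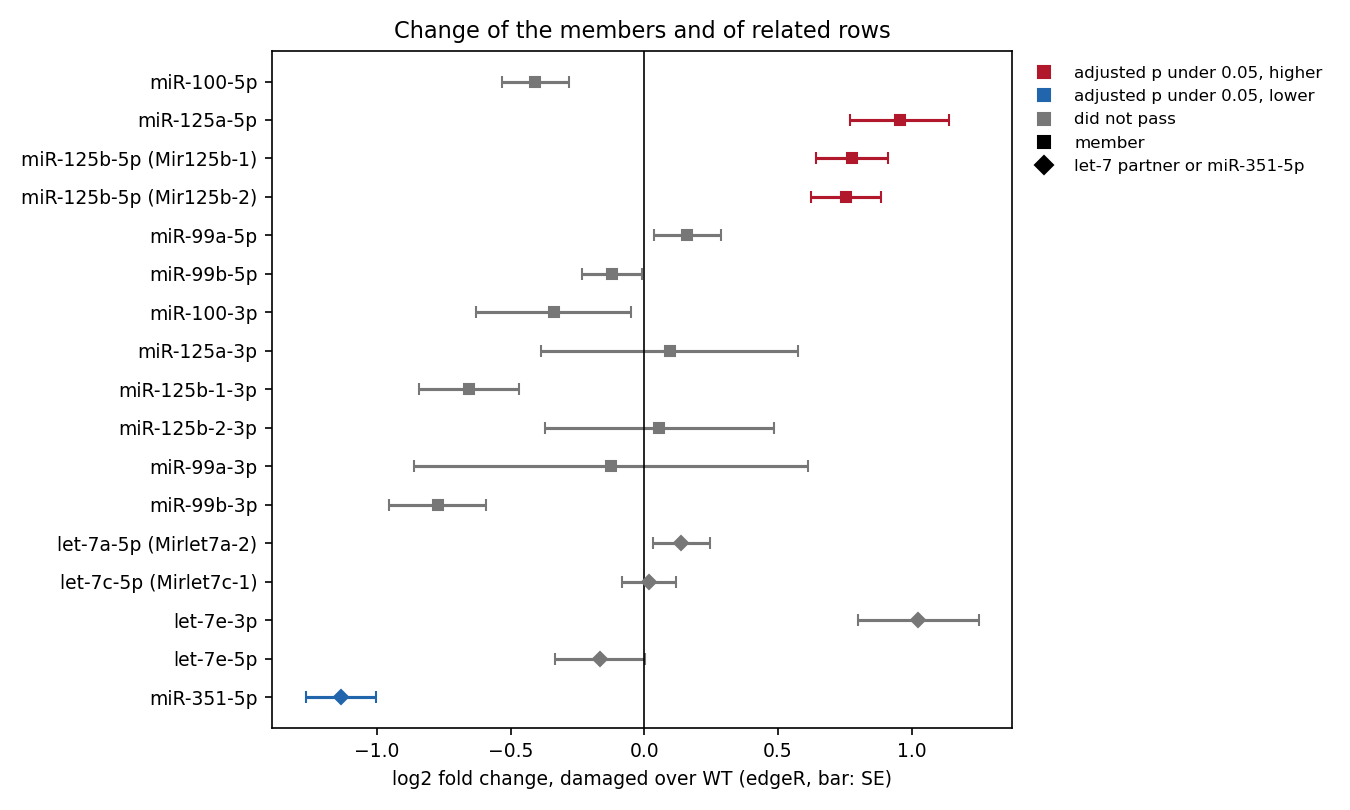
log2 fold change of damaged over WT with its SE from edgeR for the 12 members (squares), 4 let-7 rows of the same clusters and miR-351-5p (diamonds). Red marks the miR-125a-5p and miR-125b-5p rows, called higher, and blue miR-351-5p, called lower; grey rows did not pass.

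None of the 6 rows of 3p arms passed edgeR, and 2 of them had an unadjusted p under 0.05, as did 165 of all 536 tested rows. The median log2 fold change was -0.23 over the 3p rows and 0.46 over the 5p rows. The 5p median counts the sequence of miR-125b-5p in 2 rows, so it leans on the miR-125 family. The 5p rows of miR-99a, miR-99b and miR-100 had 0.16, -0.12 and -0.41.

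miR-99b-3p had 208 and 168 CPM in WT and 108 and 112 CPM in damaged. Both damaged libraries were below both WT libraries, with a log2 fold change of -0.77 in edgeR (SE 0.18, adjusted p = 0.0537). It passed in 7 of 10 other settings on 4 libraries (adjusted p = 0.00535 to 0.0562). miR-125b-1-3p had 276 and 215 CPM in WT and 161 and 150 CPM in damaged. These groups do not overlap either, and edgeR's log2 fold change was -0.66 (SE 0.19, adjusted p = 0.0800), passing in 5 of the 10 settings (0.0168 to 0.0811). DESeq2 called both lower. Neither row passed when any single library was left out.

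The other 4 3p rows were low and overlapped between the groups. miR-100-3p had 51.4 and 35.2 CPM in WT and 37.9 and 30.3 in damaged. miR-125b-2-3p had 34.5 and 19.2 CPM in WT and 20.3 and 35.2 in damaged. miR-125a-3p had 13.1 and 14.6 CPM in WT and 8.90 and 20.6 in damaged. miR-99a-3p, with 16 to 44 counts per library, had 5.54 and 3.81 CPM in WT and 6.42 and 2.13 in damaged. Their adjusted p was 0.493 to 0.962 by edgeR, with SEs of 0.29 to 0.74 on the log2 scale. With such SEs, a change of the size of the miR-125 5p rows was not detectable for the lowest of them. How far depth or the spread between replicates set these SEs was not tested. The 3p arms are the readout in which the miR-125b hairpins can be told apart. miR-125b-1-3p outnumbered miR-125b-2-3p in every library, by 7.98 and 11.2 reads to 1 in WT and 7.94 and 4.25 to 1 in damaged.

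The balance of arms within a hairpin did not overlap between the groups for miR-125b, miR-125a and miR-99b; with 2 libraries a group it was given no test. With both miR-125b hairpins pooled, 16.8% (exact 95% interval 16.0 to 17.6) and 11.7% (11.2 to 12.2) of reads were 3p in WT, against 6.22% (5.89 to 6.57) and 6.01% (5.71 to 6.33) in damaged. There were 6.26 ± 1.84 5p reads per 3p read in WT and 15.3 ± 0.398 in damaged (SD, n = 2), a difference of 1.33 in the log2 ratio. Both groups' values lie apart, and the WT replicates differ from each other beyond counting error. For miR-99b the 3p share was 9.33% (8.77 to 9.92) and 7.25% (6.87 to 7.64) in WT and 5.27% (4.90 to 5.65) and 5.57% (5.21 to 5.94) in damaged, a difference of 0.65 in the log2 ratio of 5p to 3p. For miR-125a the 3p share was 1.68% and 1.51% in WT and 0.604% and 1.09% in damaged (difference 0.98). For miR-100 it was 3.15% and 2.46% in WT and 3.33% and 2.59% in damaged (difference -0.08), and its groups overlap, as do those of miR-99a.

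These differences were read against hairpins with 1 tested row in each arm, no second gene copy and no library at 0 in either arm. That set was chosen after the members' values were seen, and it includes the hairpins of miR-99a, miR-99b, miR-100, miR-125a and let-7e themselves. Among 104 such hairpins the log2 ratio of 5p to 3p reads was higher in both damaged libraries than in both WT libraries for 24% and lower for 35.6%. The median change was -0.21, with quartiles of -1.07 and 0.50, and the upper decile began at 1.00. The change of miR-125b (1.33) lay in the range of that decile, though its pooled hairpins are outside the set because of their second copy. That of miR-125a (0.98) was just under the decile, and that of miR-99b (0.65) above the upper quartile. Lack of overlap in CPM was likewise common, with 29.1% of tested rows higher and 30.8% lower in both damaged libraries, against 3 and 4 of the 12 members.

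**Figure D4:**
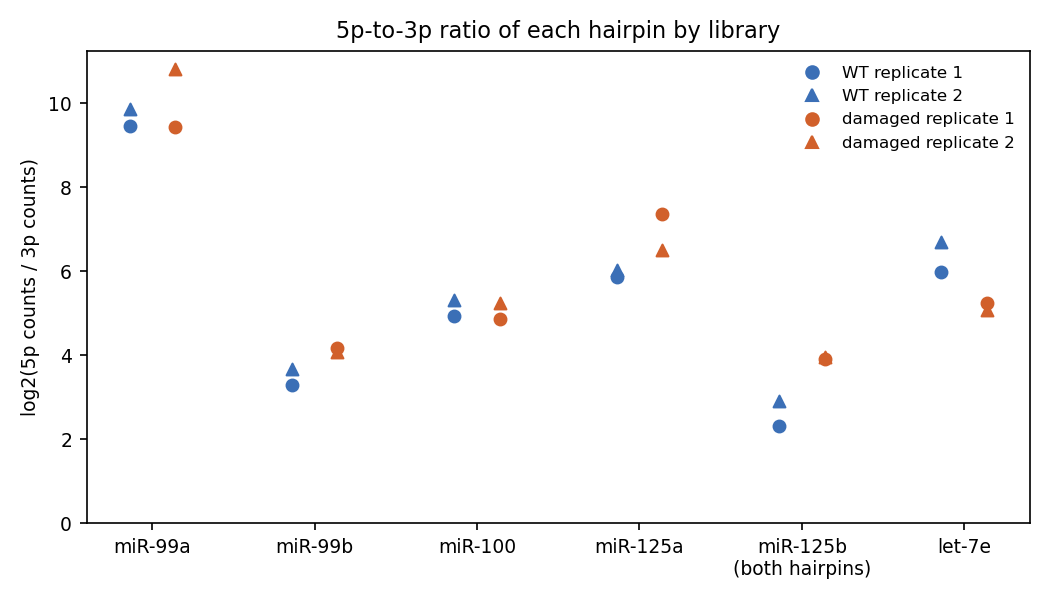
log2 ratio of 5p to 3p counts of each hairpin in the 4 libraries (circles and triangles are replicates 1 and 2; the 2 miR-125b hairpins are pooled). Damaged libraries lie above WT for miR-99b, miR-125a and miR-125b and below for let-7e, and overlap WT for miR-99a and miR-100.

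Of the ratios formed within a cluster, that of let-7e-5p to miR-99b-5p overlapped between the groups and the others lay apart. These ratios share rows, so they are not independent, and no share over other pairs of rows was computed. Lack of overlap was common in CPM, with 29.1% of tested rows higher and 30.8% lower in both damaged libraries. On chromosome 17, where miR-99b, let-7e and miR-125a lie within 683 bases, the log2 ratio of miR-125a-5p to miR-99b-5p was -1.40 and -1.18 in WT and -0.41 and -0.02 in damaged, a difference of 1.07. That of miR-125a-5p to let-7e-5p differed by 1.11, while that of let-7e-5p to miR-99b-5p was 0.10 and 0.42 in WT and 0.25 and 0.19 in damaged, which overlap. On chromosome 9, miR-125b-1-3p and miR-100-5p were both lower in both damaged libraries, with log2 fold changes of -0.66 and -0.41 that did not pass. Their log2 ratio was -2.52 and -2.70 in WT and -2.77 and -2.93 in damaged, a difference of -0.24 with no overlap. For miR-125b-5p, which cannot be assigned to that cluster alone, the log2 ratio to miR-100-5p was higher in damaged by 1.17 and that to miR-99a-5p by 0.61, with no overlap in either.

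The let-7 partners, regulators of growth and differentiation that share these primary transcripts, gave 0 calls among 6 tested rows by edgeR (1 at an unadjusted p under 0.05, against 165 of 536 over all rows). let-7c-5p (Mirlet7c-1), whose sequence is made from a second hairpin too, had 44085 and 45711 CPM in WT and 46342 and 44583 CPM in damaged (log2 fold change 0.02, adjusted p = 0.948). let-7a-5p (Mirlet7a-2), also a sequence of 2 gene copies, had 10462 and 11084 CPM in WT and 11463 and 12240 CPM in damaged (0.14, adjusted p = 0.437). let-7e-5p had 2159 and 2874 CPM in WT and 2322 and 2163 CPM in damaged (-0.17, adjusted p = 0.563). let-7e-3p had 34.1 and 27.6 CPM in WT and 61.7 and 63.6 CPM in damaged, and edgeR put the log2 fold change at 1.03 (SE 0.23, adjusted p = 0.0523; 0.00375 to 0.0553 over the 10 settings, passing in 9). The arm balance of let-7e therefore changed in the opposite direction to that of its neighbours miR-99b and miR-125a. Its log2 ratio of 5p to 3p differed by -1.18. Among the 104 hairpins above, the lower quartile of this change was -1.07, and 35.6% were lower without overlap. The 3p rows of let-7a-2 and let-7c-1 had 1 to 12 counts per library.

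Likeness of pattern was measured as the Euclidean distance between log2 CPM values centred on the mean of the 4 libraries, with gene copies summed, over 472 tested entries that are not members. The entries nearest to miR-125b-5p were miR-191-5p (distance 0.143), at 1298 and 1461 CPM in WT and 2054 and 2464 CPM in damaged and called higher by edgeR (log2 fold change 0.71, adjusted p = 0.0422), miR-29a-5p (0.150) and miR-106b-3p (0.164), which were not called (adjusted p = 0.168 and 0.402). Those nearest to miR-99a-5p were miR-425-5p (0.0191), at 157 and 151 CPM in WT and 185 and 164 CPM in damaged, miR-378c (0.0923) and miR-463-5p (0.108), none of them called (adjusted p = 0.512, 0.688 and 0.309).

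**Figure D5:**
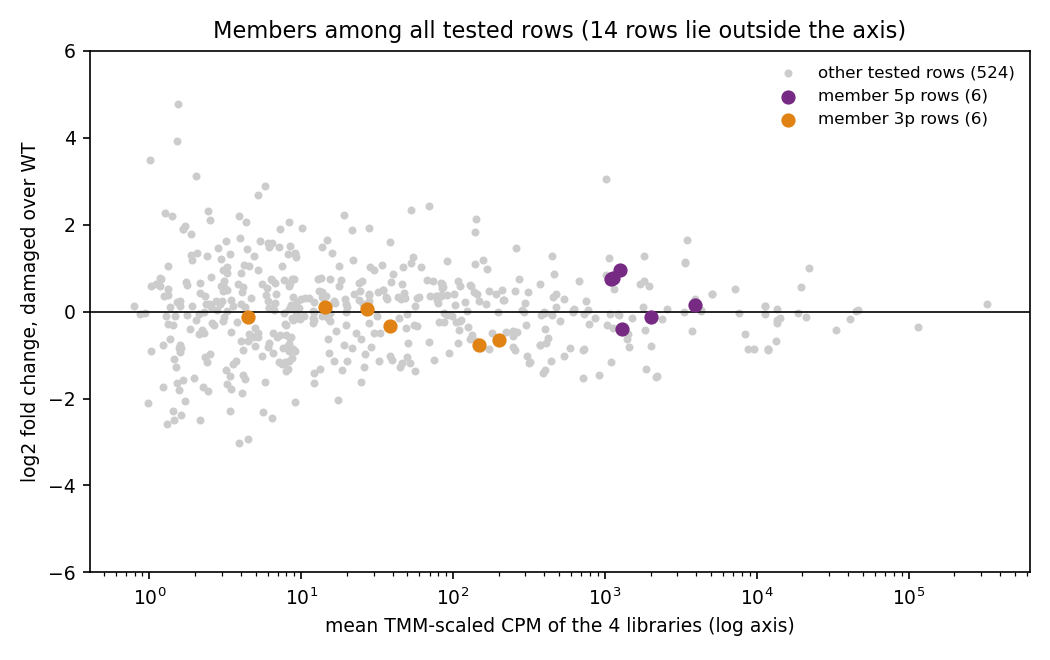
log2 fold change of damaged over WT against mean CPM (log axis) for all 536 tested rows, with the 6 member 5p rows in purple and the 6 member 3p rows in orange; 14 other rows lie outside the axis. The miR-125 5p rows lie between 0.75 and 0.96 at a mean of 1105 to 1262 CPM.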

How the data were processed

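The authors deposited a table of raw read counts per mature miRNA entry, 1 column per library, with no pooling. Per the file headers, featureCounts 2.0.1 counted features of type miRNA, with no option for strand, multi-mapping or multi-overlap reads. FastQC, BWA and the mm10 build are named in the submitters' processing notes. For trimming and the version of miRBase, the step is not given in the sources used here. Rows were named by identical coordinates in RefSeq (GRCm38.p6, 1734 rows) or else from GENCODE vM21 hairpins (364 rows); 12 had no name.

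The comparison used edgeR 4.0.16 (quasi-likelihood, TMM, group as the only term, rows kept by filterByExpr with its minimum count at 10) in R 4.3.3, tested on simulated data. The SE is the log2 fold change divided by the square root of F. CPM values are TMM-scaled, and shares are not. A count of 0 allows up to 3 counts, or 0.393 to 0.655 CPM. The 10 other settings were RLE, upper-quartile and library-total scaling, no filter, a stricter filter (10 CPM in 2 libraries), DESeq2 1.42.0, limma-voom (limma 3.58.1), the replicate block, summed gene copies and a loess correction for GC content. Each library was also left out in turn. Named rows were all members, the let-7 rows within 60000 bases, miR-351-5p and the 3 entries of nearest pattern. Members and lists were chosen with earlier results of these data known.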

Additional observations from a re-analysis of the deposited data

How the results depend on the processing

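Against 51 calls over 536 rows and 3 among 12 members, all 3 higher, edgeR called 77 and 5 with upper-quartile scaling. With no filter it called 131 of 1001 rows and 5 of 12 members. The stricter filter gave 91 of 318 rows and 5 of 11 members. In each of these settings the 5 member calls were 3 higher and 2 lower. Of the 536 rows and 12 members, DESeq2 called 109 and 6 (3 higher and 3 lower), and limma-voom 79 and 4 (3 higher and 1 lower). Leaving out WT replicate 1, WT replicate 2 or damaged replicate 1 gave 0 edgeR calls over all rows (103, 124 and 144 at an unadjusted p under 0.05), and leaving out damaged replicate 2 gave 30; among the members it was 0 each time (4 to 6 at an unadjusted p under 0.05). The fits with a library left out applied the filter anew and so did not test the same 536 rows. They tested 592 rows without WT replicate 1, 581 without WT replicate 2, 585 without damaged replicate 1 and 584 without damaged replicate 2. With all libraries and the replicate number as a block there were 127 and 6 calls, the 6 being 3 higher and 3 lower. Same-numbered libraries did not deviate together (correlation 0.00 across 536 rows), but 2 libraries per group cannot show whether they share a culture. The labels do not say, so whether the numbers pair the samples is not known.

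Signs turned only in rows that passed no setting. miR-125a-3p (log2 fold change 0.09) went to -0.0231 with limma-voom and -0.0094 with the replicate block, miR-125b-2-3p (0.06) to -0.0188 after the GC correction, and let-7c-5p (Mirlet7c-1) from 0.02 to -0.0477 with upper-quartile scaling. With 1 library left out the range was -0.64 to 0.54 for miR-125a-3p, -0.41 to 0.46 for miR-125b-2-3p, -1.14 to 0.46 for miR-99a-3p, -0.56 to 3.26 for let-7a-2-3p, -0.33 to 2.97 for let-7c-1-3p, -0.0864 to 0.0717 for let-7c-5p (Mirlet7c-1) and -0.44 to 0.0822 for let-7e-5p. The cause was not tested. The family shares and arm shares moved by less than 1 SD, as leaving out 1 of 2 libraries always does, and the paralog differences kept their sign without any library. Among the members and let-7 partners, the 3p rows of miR-99a, let-7a-2 and let-7c-1 had the fewest counts, 1 to 44 per library.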
